A study of Mus musculus with 6 samples.

Results

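The trimethylated histone H3K9me3 was followed at Prr14 and 9 genes of the nuclear envelope in mouse skeletal muscle: Lmna, Lmnb1, Lbr, Tmpo, Lemd3, Sun1, Syne1, Syne2 and Syne3. Members were every region of the authors' table that carried 1 of these 10 gene symbols, apart from 9 of the 35 Syne1-named regions, which lie inside the neighbouring gene Esr1. This gave 124 regions out of 202553, assigned to 9 of the 10 genes, since no region carried the symbol Lmna. H3K9me3, a mark of compacted and silenced chromatin, was mapped by CUT&Tag, in which an antibody directs a transposase to cut and tag the DNA around the marked nucleosomes. The tissue was frozen quadriceps femoris, a thigh muscle, of mice labelled Prr14-WT (replicates 3, 4 and 8) or Prr14-KO (replicates 4, 5 and 7), with 3 libraries of each genotype. Age, sex, the deleted part of Prr14, the tissues in which it was deleted and any batch were not given in the sources used here. The labels do not state whether each library came from a separate mouse, so p-values apply to these libraries only. Totals were 4324444 to 4756133 counts per library, of which the 124 regions held 1658 to 1956. A silencing mark gives no transcript levels, so the muscle label was not checked against marker genes, and in whole muscle a change in cell makeup and a change of the mark per cell cannot be told apart. The question addressed at these genes was whether loss of Prr14 went with a different H3K9me3 level at the genes of the structure to which the PRR14 protein binds.

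PRR14 sits at the nuclear lamina, the protein mesh under the inner nuclear membrane, and binds HP1 proteins, which in turn bind H3K9me3, so that it links marked chromatin to the nuclear edge. Lmna and Lmnb1 encode the A-type lamins and lamin B1, the filaments of this mesh. Lbr, Tmpo (LAP2) and Lemd3 (MAN1) encode inner membrane or lamina-bound proteins that contact chromatin, and LBR is itself an HP1 partner. Sun1 and the nesprins Syne1, Syne2 and Syne3 build the LINC complex, which crosses both nuclear membranes and couples the nucleus to the cytoskeleton, a link that is prominent in the many-nucleated muscle fibre.

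RefSeq promoter windows (GRCm38.p6, 250 bases before and 50 after a start site) were available for 9 of the 10 genes. Lmnb1, the gene without one, had an H3K9me3 region over the start of its RefSeq gene, described below. Of the members' 14 windows, 1 overlapped an H3K9me3 region, against 11.8% of all 32851 windows. The 250 upstream bases of that window, the start of full-length Syne1 (chr10:5550693-5550942, minus strand), and those of Prr14 (chr7:127471364-127471613, plus strand) are given because Prr14 is the targeted gene and the Syne1 window the single one that a region touched. Each reads 5′ to 3′ towards the gene, and capitals are bases covered by a region of the authors' table.
Prr14: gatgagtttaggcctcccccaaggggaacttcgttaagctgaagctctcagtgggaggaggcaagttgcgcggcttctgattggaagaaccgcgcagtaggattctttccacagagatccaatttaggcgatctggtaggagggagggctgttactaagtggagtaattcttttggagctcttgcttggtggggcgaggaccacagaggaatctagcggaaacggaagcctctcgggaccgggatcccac
Syne1: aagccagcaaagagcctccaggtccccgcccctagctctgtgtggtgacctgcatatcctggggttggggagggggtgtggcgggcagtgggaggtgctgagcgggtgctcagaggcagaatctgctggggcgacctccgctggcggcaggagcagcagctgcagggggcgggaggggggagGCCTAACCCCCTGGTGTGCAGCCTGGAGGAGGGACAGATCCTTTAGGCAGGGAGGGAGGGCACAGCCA
The 68 Syne1 bases next to the start site were covered, and none of the Prr14 bases. The Prr14 stretch held 11 CpG dinucleotides at 54.4% GC and the Syne1 stretch 7 at 68.0% GC, beside medians of 6 and 52.4% over all windows.

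Prr14 itself carried 1 region, and its mean H3K9me3 count was higher in Prr14-KO muscle, through replicates 5 and 7. The region covers 744 bp near the 3′ end of the gene (chr7:127475331-127476074, GRCm38). It starts 3717 bp after the start site of the promoter window printed above and ends 693 bp before the end of the RefSeq gene. The authors annotated it as promoter (within 1 kb), since their table places it 184 bp from a start site. Which Prr14 transcript has that start was not identified here. The gene starts at chr7:127470371 in the authors' table and at chr7:127466324 in RefSeq, so neither is the start meant. In the Prr14-WT libraries it held 10, 18 and 10 counts (replicates 3, 4 and 8), and in the Prr14-KO libraries 14, 56 and 54 (replicates 4, 5 and 7). Prr14-KO replicates 5 and 7 were high, while Prr14-KO replicate 4 lay within the Prr14-WT range, so the groups overlapped. As a normalised read count (CPM, relative to the TMM-scaled total of the tested regions), the level was 2.95 ± 1.11 (SD, n = 3) in Prr14-WT and 10.3 ± 6.11 (SD, n = 3) in Prr14-KO. The log2 change was 1.79 (SE 0.38, 95% interval 1.04 to 2.53), with an adjusted p of 0.0216 in edgeR's quasi-likelihood test with Benjamini-Hochberg adjustment over 153789 regions. Among these regions 20, or 0.013%, passed the same threshold of 0.05, 5 higher and 15 lower in Prr14-KO. This count measures a histone mark and not the transcript, so it checks neither genotype label. The deleted part of Prr14 was not given, and whether the altered gene itself changed the reads counted here was not tested.

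The call at Prr14 rested on individual libraries and on the model, while the sign did not change. Without Prr14-KO replicate 5 the log2 change was 1.49 (adjusted p = 1.00, edgeR), and without Prr14-KO replicate 7 it was 1.54 (adjusted p = 1.00). Leaving out Prr14-WT replicate 3 gave 1.63 (adjusted p = 0.679) and leaving out Prr14-WT replicate 8 gave 1.65 (adjusted p = 0.474). Without Prr14-KO replicate 4, the library that overlapped the Prr14-WT group, the change was 2.21 (adjusted p = 8.62e-05). The edgeR fit of single regions shares its variance estimate over regions. Its p-value therefore rests on that shared estimate and hardly on the spread of the Prr14 counts themselves. DESeq2 on the same counts gave 1.80 with an adjusted p of 1.00, and an SE of 0.70 against 0.38 in edgeR. The authors' deposited table lists 1.69 with an adjusted p of 1.00. Over the 15 alternatives run, 8 lost the call, and the adjusted p ranged from 8.62e-05 to 1.00.

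**Figure D1:**
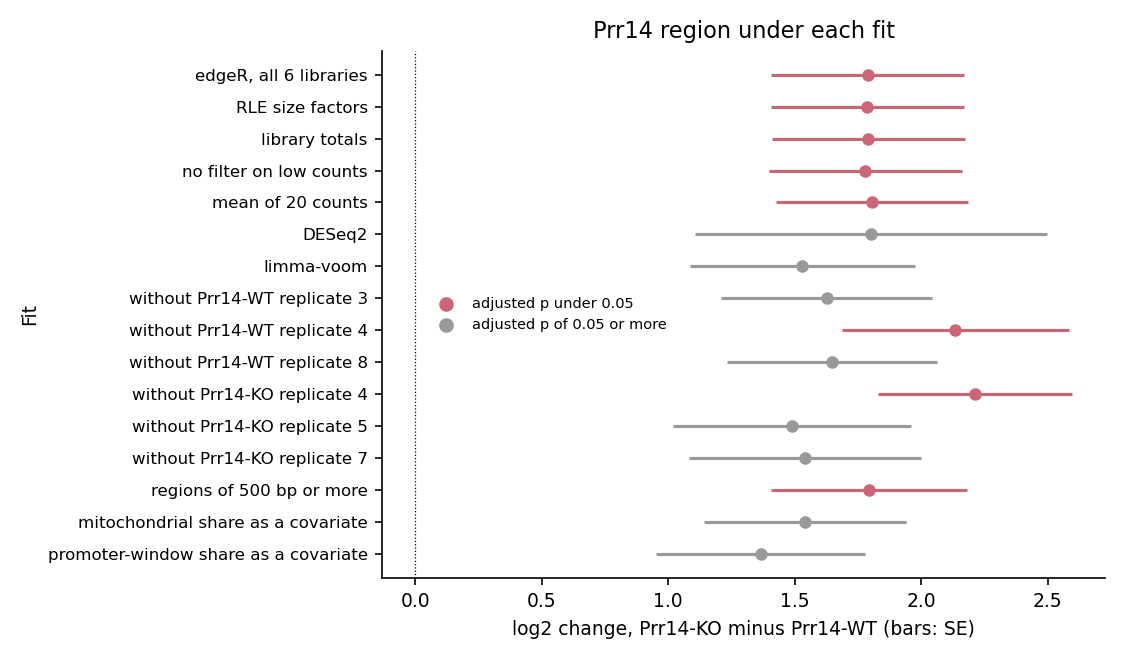
The log2 change of the Prr14 region (horizontal axis, Prr14-KO minus Prr14-WT) under the fit of all 6 libraries and 15 alternatives (vertical axis), with points as estimates and bars as SE. All estimates lie between 1.37 and 2.21, and 8 alternatives, in grey, have an adjusted p of 0.05 or more.

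Properties of the libraries followed the Prr14 counts in some libraries and not in others. The share of counts in regions that overlap a RefSeq promoter window was 1.78%, 1.78% and 1.96% in Prr14-WT replicates 3, 4 and 8, and 1.71%, 1.93% and 2.17% in Prr14-KO replicates 4, 5 and 7. The mitochondrial share of counts was 0.174%, 0.189% and 0.366% in the same Prr14-WT libraries and 0.146%, 0.248% and 0.612% in the Prr14-KO ones. Prr14-KO replicate 4, with a Prr14 count near the Prr14-WT values, had the lowest share of both kinds, while Prr14-KO replicate 7 had the highest. Prr14-WT replicate 8 went the other way, with 10 Prr14 counts and the second-highest share of both kinds, above Prr14-KO replicate 5, which had 56 Prr14 counts. With the promoter-window share as a covariate, the Prr14 change was 1.37 (adjusted p = 0.998), and with the mitochondrial share it was 1.54 (adjusted p = 0.557), both by edgeR. Both covariates were chosen after the data had been seen, and the part of these shares in the Prr14 change was not tested further.

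The regions around Prr14 had smaller differences. Within 100 kb of the gene there were 4 other regions, all upstream and all assigned to the zinc finger gene Zfp689. Summed, they measured 14.8 ± 3.46 CPM in Prr14-WT and 18.4 ± 1.11 CPM in Prr14-KO (SD, n = 3 each), a log2 ratio of 0.31. The nearest tested one (chr7:127455882-127456828) held 24, 28 and 27 counts in Prr14-WT and 39, 28 and 31 in Prr14-KO, with a log2 change of 0.38 (unadjusted p = 0.270). A test of the difference between Prr14 and these regions was not run.

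**Figure D2:**
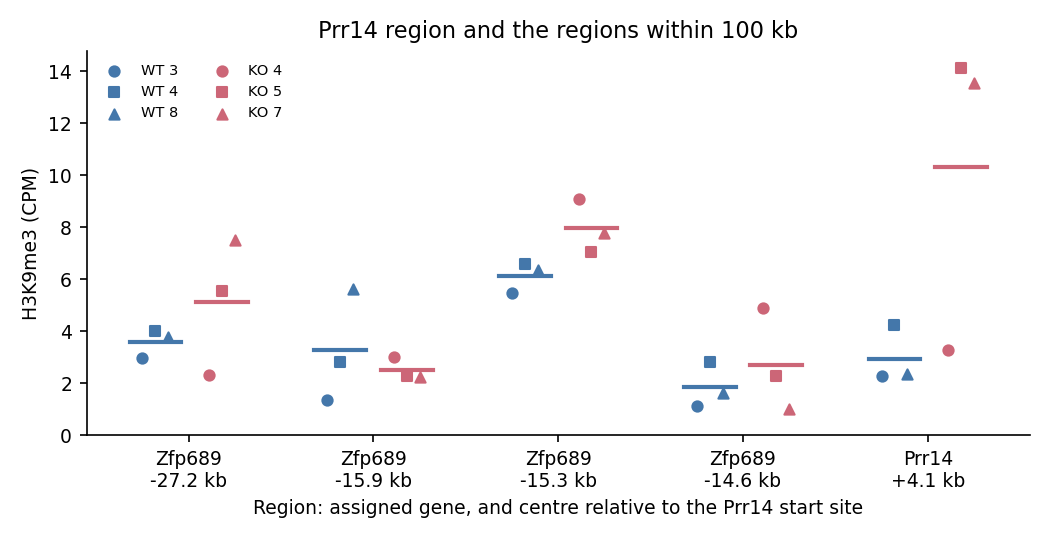
H3K9me3 in CPM (vertical axis) at the Prr14 region and the 4 Zfp689-assigned regions within 100 kb, ordered by the distance of their centres from the Prr14 start site (horizontal axis), with 1 symbol per library and bars as group means. At Prr14, Prr14-KO replicates 5 and 7 stand at 14.1 and 13.5 CPM while Prr14-KO replicate 4 is at 3.26, among the Prr14-WT libraries.

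Among 14126 summed genes, those whose profile over the 6 libraries was closest to Prr14 were Irf2bpl, Pdcl2, Bhlhe41, Rpl27a and Mrpl33, on different chromosomes from Prr14 except Rpl27a. Likeness was the Euclidean distance of mean-centred log2 CPM, and it ran from 0.75 for Irf2bpl to 0.99 for Mrpl33, beside a median of 2.46. Irf2bpl held 24, 26 and 22 counts in Prr14-WT and 27, 75 and 67 in Prr14-KO, in the same replicate order. Bhlhe41, a clock-linked transcriptional repressor, held 8, 18 and 18 in Prr14-WT and 18, 47 and 52 in Prr14-KO. All 5 were chosen for their likeness, so their values are a description. They share with Prr14 low counts and high values in Prr14-KO replicates 5 and 7.

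Of the lamin genes, Lmna had no H3K9me3 region and Lmnb1 had 6. No region overlapped Lmna (chr3:88481148-88509932), which encodes lamins A and C. The nearest region lay 10869 bp away and was assigned to the semaphorin gene Sema4a, with 15, 21 and 14 counts in Prr14-WT and 9, 8 and 6 in Prr14-KO (log2 change -1.04, unadjusted p = 0.0872, edgeR). Of the 6 Lmnb1 regions 2 lay in the gene. All 6 summed to 52, 66 and 121 counts in Prr14-WT and 50, 101 and 73 in Prr14-KO. Prr14-WT replicate 8 was the highest of all 6, and the groups overlapped at 18.6 ± 8.73 and 18.5 ± 6.91 CPM (SD, n = 3 each). The log2 change of the Lmnb1 sum was -0.03 (95% interval -0.55 to 0.50). Its promoter region (chr18:56707580-56708450), which spans the start of the RefSeq gene, held 15, 14 and 35 counts in Prr14-WT and 13, 25 and 28 in Prr14-KO, a log2 change of 0.13. The Lmnb1 region with the most counts, 25230 bp upstream (chr18:56682427-56682739), held 11, 18 and 37 in Prr14-WT and 23, 37 and 22 in Prr14-KO, a log2 change of 0.39 (unadjusted p = 0.311). In both regions the libraries of 1 genotype differed among themselves by more than the genotypes did.

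Lbr, the lamin B receptor, had 5 regions, of which 3 were tested and none passed the adjusted threshold. The region with the most counts lay 22983 bp upstream (chr1:181865600-181866458) and held 18, 36 and 19 counts in Prr14-WT and 19, 6 and 6 in Prr14-KO. Prr14-KO replicates 5 and 7 were low there and replicate 4 was not. Its log2 change of -1.17 had an unadjusted p of 0.0173 and an adjusted p of 0.998. Farther out, 28848 bp upstream, a region (chr1:181871681-181872106) singled out after its values were seen held 4, 10 and 11 in Prr14-WT and 17, 18 and 11 in Prr14-KO, with a log2 change of 0.94 (unadjusted p = 0.123). Inside Lbr itself were 2 regions annotated as promoter, with 2, 7 and 17 against 0, 5 and 8 counts, and with 4, 2 and 8 against 0, 9 and 15 counts. Both were under the count filter and were not tested. The Lbr sum of 14.2 ± 2.08 CPM in Prr14-WT and 13.2 ± 3.56 CPM in Prr14-KO (SD, n = 3 each) gave a log2 change of -0.12 (95% interval -0.66 to 0.42).

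Tmpo, which encodes the lamina-associated LAP2 proteins, held 67 of the 124 regions and 57.2% of the members' counts, yet none lay in the gene (chr10:91147571-91181752). All 67 were intergenic and spread from 25436 to 763639 bp upstream of its start, so the Tmpo sum describes a long intergenic stretch that the authors assigned to Tmpo. The sum was 1097, 934 and 1062 counts in Prr14-WT and 1032, 1019 and 1120 in Prr14-KO. In CPM this was 240 ± 17.1 and 259 ± 20.4 (SD, n = 3 each), with overlapping groups. Its log2 change of 0.10 (95% interval -0.06 to 0.26, unadjusted p = 0.230) is the most precise among the members, with an SE of 0.08.

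In steps of 100 kb along this stretch, the Prr14-KO mean was the higher one in each step from 0 to 500 kb and from 700 to 800 kb upstream, and the lower one from 500 to 700 kb. From 100 to 200 kb upstream, 9 regions summed to 53.1 ± 10.7 CPM in Prr14-WT and 63.5 ± 0.308 CPM in Prr14-KO (SD, n = 3 each). Prr14-WT replicate 8, at 63.2 CPM, was level with the Prr14-KO libraries. From 300 to 400 kb the sums were 20.7, 26.8 and 30.3 CPM in Prr14-WT and 30.8, 34.1 and 31.1 CPM in Prr14-KO. In this step alone the groups did not overlap, with 30.3 CPM as the highest Prr14-WT and 30.8 CPM as the lowest Prr14-KO value. Of all tested single regions, 9.61% did not overlap, but the share for sums of several regions was not computed. The differences were smaller from 200 to 300 kb (36.6 against 35.2 CPM), from 400 to 500 kb (44.7 against 42.4 CPM) and from 700 to 800 kb (19.6 against 18.9 CPM). From 500 to 700 kb the Prr14-KO means were 29.5 against 31.5 CPM and 24.2 against 25.6 CPM. No test was made of single distance bins. Of the 42 tested Tmpo regions, 25 were higher and 17 lower in Prr14-KO. The smallest unadjusted p, 0.0456, was at chr10:91544062-91544368, with 19, 12 and 19 counts in Prr14-WT and 29, 21 and 34 in Prr14-KO (log2 change 0.82, adjusted p = 0.998, edgeR). The Tmpo region with the most counts (chr10:91361702-91362450) held 63, 38 and 63 in Prr14-WT and 66, 50 and 44 in Prr14-KO, a log2 change of 0.04.

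**Figure D3:**
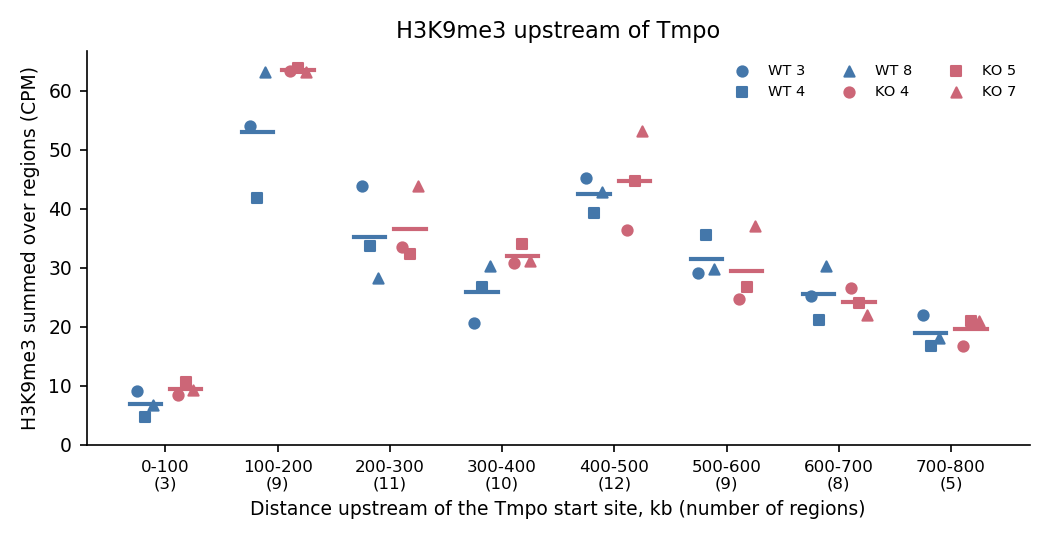
H3K9me3 summed over the Tmpo-assigned regions in 100 kb steps upstream of the Tmpo start site (horizontal axis, number of regions in brackets), in CPM (vertical axis), with 1 symbol per library and bars as group means. The highest sums, 53.1 and 63.5 CPM on average, lie 100 to 200 kb upstream. Only at 300 to 400 kb do the groups not overlap, by 30.3 against 30.8 CPM. The share without overlap was 9.61% for all tested single regions and was not computed for such sums.

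Lemd3, which encodes the inner membrane protein MAN1, had the lowest log2 change among the summed members. Its 7 regions summed to 108, 92 and 86 counts in Prr14-WT and 69, 84 and 66 in Prr14-KO, or 22.1 ± 2.20 and 17.9 ± 2.82 CPM (SD, n = 3 each). Prr14-KO replicate 5 lay within the Prr14-WT range, and the log2 change of -0.32 (SE 0.22, 95% interval -0.76 to 0.11) had an unadjusted p of 0.143. The smallest p of a Lemd3 region was at an intronic one (chr10:120962724-120963038) with 25, 17 and 13 counts in Prr14-WT and 8, 10 and 10 in Prr14-KO. There the groups did not overlap, and the log2 change was -0.88 (unadjusted p = 0.114). The Lemd3 region with the most counts (chr10:120996940-120997157, intergenic) held 19, 18 and 15 against 17, 18 and 12 counts, a log2 change of -0.07.

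Sun1, the inner membrane component of the LINC complex, had no region in its own body. One of its 2 assigned regions lies in an intron of the neighbouring gene Dnaaf5 (chr5:139183508-139183789), with 8, 3 and 5 counts in Prr14-WT and 6, 16 and 9 in Prr14-KO, and was not tested. The other, 4468 bp upstream of Sun1 (chr5:139196092-139196245), held 7, 14 and 4 in Prr14-WT and 6, 12 and 17 in Prr14-KO, a log2 change of 0.57 (unadjusted p = 0.416). Their sum was 3.17 ± 0.963 CPM in Prr14-WT and 5.46 ± 2.32 CPM in Prr14-KO (SD, n = 3 each). As at Prr14, replicates 5 and 7 were the high Prr14-KO libraries, at 7.06 and 6.52 CPM, with replicate 4 at 2.80 CPM. The log2 change of 0.75 had a 95% interval from -0.35 to 1.84 (unadjusted p = 0.179).

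Syne1, which encodes the giant nesprin-1, had 26 regions, 23 of them in the gene, and 20.9% of the members' counts. The sum was 419, 328 and 461 counts in Prr14-WT and 372, 356 and 352 in Prr14-KO. The Prr14-KO libraries lay close together inside the wider Prr14-WT range, at 88.3 ± 1.56 and 93.6 ± 15.7 CPM (SD, n = 3 each). The log2 change was -0.10 (SE 0.12, 95% interval -0.33 to 0.13), and of 18 tested regions 6 were higher and 12 lower in Prr14-KO. The region over the full-length start, part of which is printed above (chr10:5549975-5550760) held the most counts, 45, 19 and 44 in Prr14-WT and 48, 42 and 40 in Prr14-KO. Its log2 change was 0.34 (unadjusted p = 0.242), with the low value of Prr14-WT replicate 4 standing apart from the other 5 libraries. Regions 1876 bp into the gene (chr10:5548712-5548891) and in an exon (chr10:5259307-5259727) gave log2 changes of -0.20 and 0.14. The other 2 exonic regions were under the count filter, with 0 to 19 and 2 to 18 counts per library. The smallest p of a Syne1 region was 0.195, in an intron (chr10:5472831-5473247) with 24, 24 and 12 counts in Prr14-WT and 14, 15 and 7 in Prr14-KO (log2 change -0.66).

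The mark thinned out along the Syne1 body away from the full-length start. Cut into 4 parts of equal length, the gene held in the part next to the start 9 regions and 38.9 ± 5.60 CPM in Prr14-WT against 36.8 ± 4.93 CPM in Prr14-KO (SD, n = 3 each). The second part held 8 regions at 26.3 and 26.1 CPM, the third 4 regions at 13.2 and 12.2 CPM, and the last 3 regions at 9.10 ± 3.78 and 5.51 ± 1.73 CPM. The order was the same in both genotypes, and the last part had the lowest ratio of Prr14-KO to Prr14-WT. These counts include 1 region in the Syne1 span that the authors assigned to another symbol.

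The 9 regions named Syne1 but lying in Esr1, the oestrogen receptor alpha gene, were left out, and 2 of them matter for the Syne1 sum. These exonic regions held 4, 8 and 2 counts and 1, 2 and 7 counts in Prr14-WT, against 81, 39 and 60 and 148, 53 and 59 in Prr14-KO. With all 9 kept, the Syne1 log2 change turned from -0.10 to 0.32 (unadjusted p = 0.0026, adjusted p = 1.00, edgeR). Whether the reads counted at these exons came from the Esr1 locus itself was not tested, so their counts are not read as an H3K9me3 level.

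Syne2 and Syne3, the genes of nesprin-2 and nesprin-3, showed the smallest sizes of change together with Lmnb1. Syne2 summed to 103, 108 and 103 counts in Prr14-WT and 99, 109 and 95 in Prr14-KO, or 24.3 ± 1.01 and 24.8 ± 2.37 CPM (SD, n = 3 each), a log2 change of 0.01 (95% interval -0.38 to 0.40). Its region with the most counts, 38072 bp upstream (chr12:75779634-75780490), held 44, 42 and 34 in Prr14-WT and 46, 60 and 30 in Prr14-KO, a log2 change of 0.26. An intronic Syne2 region (chr12:75864763-75864944) had the smallest p, 0.214, with 13, 12 and 6 counts in Prr14-WT and 0, 11 and 2 in Prr14-KO (log2 change -1.13). The Syne2 region annotated as 3′UTR (chr12:76121540-76122021) lies in Esr2 by the RefSeq spans, past the end of Syne2, and had a log2 change of 0.22. Another Syne2-assigned region in Esr2 (chr12:76122665-76122829, intron) held 6, 11 and 12 counts in Prr14-WT and 3, 1 and 4 in Prr14-KO. It was not tested. Both Esr2 regions are part of the Syne2 sum, also when only promoter, UTR, exon and intron regions are summed. The 2 regions annotated as promoters, which lie inside the Syne2 span away from its RefSeq start, held 48 counts in all (not tested) and 95 counts (log2 change -0.27). Syne3 summed to 31, 30 and 38 counts in Prr14-WT and 37, 32 and 27 in Prr14-KO, or 7.68 ± 1.09 and 7.82 ± 0.948 CPM (SD, n = 3 each), a log2 change of 0.01 (95% interval -0.72 to 0.74). Its 5′UTR region held 6, 0 and 21 counts in Prr14-WT and 4, 0 and 2 in Prr14-KO and was not tested. Its intronic region with the most counts (chr12:104936074-104936471) held 23, 15 and 9 against 25, 7 and 15, a log2 change of 0.07.

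**Figure D4:**
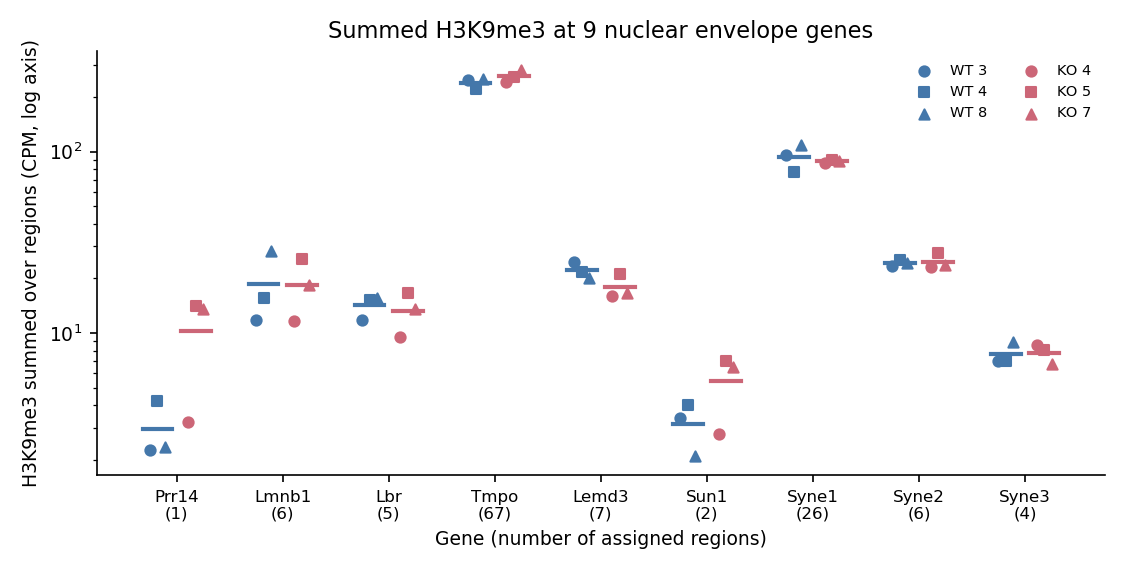
H3K9me3 summed over the regions assigned to each of 9 genes (horizontal axis, number of regions in brackets), in CPM on a log axis (vertical axis), with 1 symbol per library and bars as group means. The groups overlap at every gene, and the sums run from 2.95 CPM at Prr14 in Prr14-WT to 259 CPM at Tmpo in Prr14-KO.

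Counted over single regions, the members stood near the table as a whole, apart from the Prr14 region. Of the 124 regions 77 passed the count filter and 47 did not, so the following counts do not cover all members. The Prr14 region alone passed the adjusted threshold among the 77. An unadjusted p under 0.05 was reached by 3 regions (Prr14 and 1 Tmpo region higher, 1 Lbr region lower), beside 3.84% of all tested regions. The genotypes did not overlap at 8 regions, 6 of Tmpo and 1 each of Lbr and Lemd3, beside 9.61% of all tested regions. The 6 Tmpo regions and the Lbr region were higher in Prr14-KO and the Lemd3 region lower. In all, 41 regions were higher and 36 lower, with a median log2 change of 0.06 against 0.00 over all tested regions. Without the Tmpo regions, 45.7% of the tested members were higher, beside 50.1% of all tested regions, and the median was -0.05. The members' regions had a mean of 14.7 counts per library, against 22.6 over all regions, and a median SE of 0.49 on the log2 scale.

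Summed per gene, 0 of the 9 members with regions passed the adjusted threshold of edgeR, beside 0.0393% of 15265 gene sums. Prr14 was the single member with an unadjusted p under 0.05, which 3.57% of all gene sums had. Its sum, the same counts as its 1 region, had an adjusted p of 0.299 in this fit, and the other 8 each had 1.00. DESeq2 and limma-voom on the gene sums also called 0 of the 9. The members' changes comprised 5 higher and 4 lower, with a median of 0.01 and a median size of 0.10, beside 0.13 over all gene sums. Summed over promoter, UTR, exon and intron regions only, 7 members were tested and 0 passed, beside 0.0599% of 11682 such sums, and Prr14 had an adjusted p of 0.0856 there. The intervals set what could be seen: at Tmpo and Syne1 they end at log2 changes of 0.26 upwards and -0.33 downwards, while those of Sun1 and Syne3 reach 1.84 and 0.74.

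**Figure D5:**
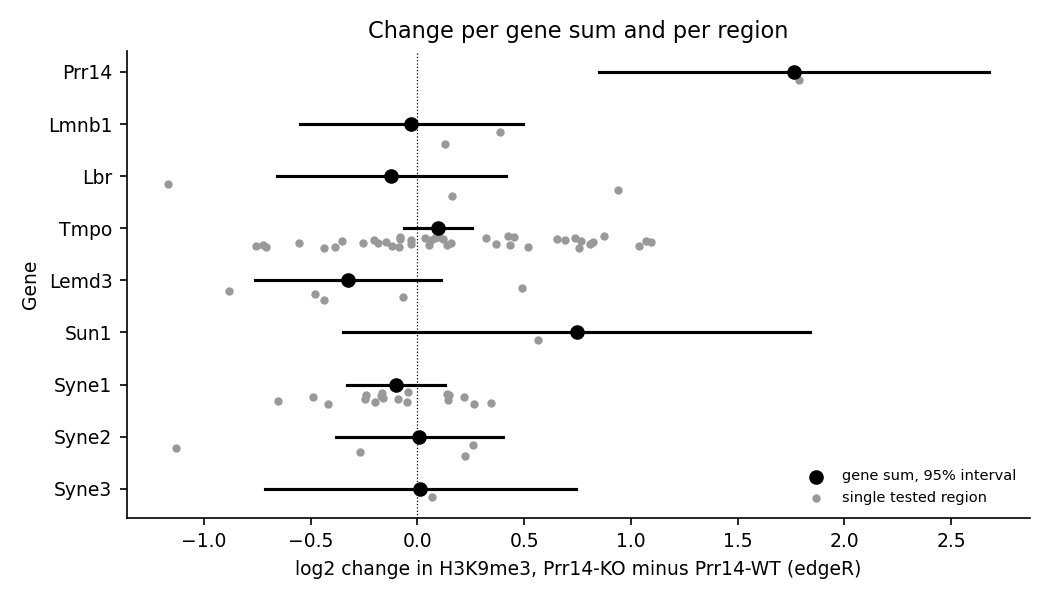
The log2 change of H3K9me3 from Prr14-WT to Prr14-KO (horizontal axis) for each gene (vertical axis), with black points and bars as the gene sum and its 95% interval and grey points as single tested regions. Only the Prr14 interval, 0.85 to 2.68, does not include 0, and the single regions of Tmpo and Syne1 fall on both sides of 0.

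The genes differed in where their regions lay. Of the 124 regions 83 were intergenic, 66.9% against 68.1% of all regions, and 22.6% were intronic, as in the table as a whole. In the RefSeq span of their own gene lay 30.6% of the 124 regions, near the 25.7% of all regions. The 67 Tmpo regions were all outside, and of the other 57 regions 38 were inside. Per 100 kb of gene, the Prr14-WT mean was 28.3 CPM at Prr14, whose span is 10.4 kb, 16.5 at Syne1, 15.6 at Lemd3, 14.8 at Lmnb1, 11.5 at Lbr, 9.52 at Syne3 and 2.65 at Syne2. In Prr14-KO, Prr14 was at 98.7 CPM per 100 kb, with the high values of replicates 5 and 7, and the other 6 genes were between 2.44 and 15.2. The median over 21900 protein-coding genes was 5.40 CPM per 100 kb in Prr14-WT and 6.41 in Prr14-KO. Tmpo, Lmna and Sun1 were among the 44.9% of protein-coding genes with no region in their span. Syne2, although 292.6 kb long, held 3 regions in its span, while the 530.5 kb of Syne1 held 24.

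A list of 34 further genes of the lamina, the nuclear membrane, the nuclear pore and the HP1 family was read from the same gene sums. Regions were assigned to 14 of them, and 11 could be tested as sums. Of these 11, 0 passed the adjusted threshold of edgeR, beside 0.0393% of all gene sums, and 0 had an unadjusted p under 0.05, beside 3.57%. DESeq2 and limma-voom also called 0. At these shares a count of 0 among 11 is near the background. The sums comprised 6 higher and 5 lower, with a median log2 change of 0.02. The smallest p values among those higher were at Kash5, a KASH protein of the meiotic LINC complex (log2 change 1.01, unadjusted p = 0.0549, edgeR), at Sun2, a close relative of Sun1 (0.96, unadjusted p = 0.0861), and at Plpp7 (0.12, unadjusted p = 0.614). Kash5 held 10, 15 and 17 counts in Prr14-WT and 12, 47 and 22 in Prr14-KO, and Sun2 held 4, 13 and 25 against 8, 39 and 31. At Kash5 and Sun2, as at Prr14 and Sun1, Prr14-KO replicate 4 was the low library of its group. This was not particular to these genes. By CPM, replicate 4 was the lowest Prr14-KO library at every member sum except Syne3, where it was the highest. On the present list it was also the lowest at Icmt, Tor1aip1 and Mlip, but the highest at Lemd2, Wfs1, Tor1aip2 and Cbx3. Among those lower, the smallest unadjusted p values of edgeR were at Wfs1 (log2 change -0.08, unadjusted p = 0.536), Tor1aip2 (-0.11, unadjusted p = 0.556) and Cbx3, the gene of HP1 gamma (-0.19, unadjusted p = 0.630). Lemd2, another LEM-domain gene, had the most mark on this list, at 133 ± 15.9 CPM in Prr14-WT and 132 ± 7.66 CPM in Prr14-KO over 22 regions (SD, n = 3 each).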

How the data were processed

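The data are 6 H3K9me3 CUT&Tag libraries of thigh muscle, 3 per genotype. The submitters' processing notes name BWA, Trimmomatic, bedtools, MACS2, DESeq2 1.6.3 and deepTools, and the build GRCm38. The deposited table holds raw counts per region and library for 202553 regions, with the authors' gene assignment. Its totals were 4324444 to 4756133 counts per library. The authors' own normalized signal and scores were not used as measurements, the distances of regions upstream of a gene start are those of their table, and their deposited log2 change and p-value columns were read for the Prr14 region only.

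Counts were fitted with edgeR 4.0.16 (quasi-likelihood, robust, TMM scaling, filterByExpr with a minimum count of 10 and a minimum total of 15, R 4.3.3) over all 153789 regions that passed, and over counts summed per gene symbol. P-values were adjusted by Benjamini-Hochberg over each whole table at a threshold of 0.05. The procedure was run on simulated counts to check that it returned the log2 changes put in. Every simulated region had the same variance setting, so regions with a large spread of their own were not covered. CPM are relative to the TMM-scaled total count of the tested regions. No spike-in was used in the scaling, so a change shared by most regions would not be seen. Gene spans and promoter windows came from RefSeq (GRCm38.p6). For each member the regions with the most counts, with the smallest p and those annotated as promoter, exon or UTR were named, up to 6 by counts. Genes like Prr14 were the 5 nearest by distance over the 6 libraries (pseudocount 0.5 CPM), and of the envelope list the 3 with the smallest p in each direction were named. Alternatives were DESeq2 1.42.0, limma-voom (limma 3.58.1), other scalings and filters, other choices of regions and leaving out each library. The members, lists and tests were chosen with earlier results of these data known.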

Additional observations from a re-analysis of the deposited data

How the results depend on the processing

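The Prr14 region kept its sign in all 15 alternatives. It lost the call under DESeq2 (log2 change 1.80), limma-voom (1.53), the mitochondrial covariate (1.54) and the promoter-window covariate (1.37), each of which left 0 member regions past the threshold, against 1. Leaving out 1 library gave 1.49 to 2.21 and 0 to 1 member regions called. Member gene sums past the threshold were 0 to 1 when 1 library was left out, the 1 being Prr14 without Prr14-KO replicate 4 (2.18, adjusted p = 0.000786, edgeR). Member sums over genic regions were likewise 0 to 1, again Prr14 without that library (adjusted p = 0.00125), and 1 at an adjusted p threshold of 0.1. Over all genes, 6 sums passed with every library and 18 without Prr14-KO replicate 4, and regions of 500 bp or more gave 12 calls in place of 20. No gene of the envelope list was called in any of 16 settings. The cause of these differences was not tested.

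Signs near 0 turned. Leaving out 1 library moved Lbr between -0.310 and 0.0463, Lmnb1 between -0.32 and 0.39, Syne2 between -0.0614 and 0.0444 and Syne3 between -0.0898 and 0.115. With genic regions only, Syne2 was at -0.18 and Syne3 at -0.0045, and by RefSeq span Syne2 was at -0.15. With the Esr1 regions kept, Syne1 was at 0.32. Tmpo, Lemd3, Sun1 and Prr14 sums kept their signs. Most member regions held few counts, so single regions show large changes only, and 47 of 124 were not tested. No paired analysis was possible because the genotypes share just 1 replicate number, 4. The covariate fits and the width limit for Prr14 were added after the data were seen.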
